A study of Mus musculus with 2 samples.

Results

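Mucins are the heavily glycosylated proteins of the mucus and of the apical surface of the colon. The members described here are the 5 mucin genes Muc1, Muc2, Muc3, Muc4 and Muc13, chosen by symbol among the 19294 gene symbols of the count matrix. Muc2 encodes the gel-forming mucin that goblet cells secrete. Muc1, Muc3, Muc4 and Muc13 encode membrane mucins, which stay anchored in the cell membrane by a transmembrane segment. Secreted Muc2 is assembled into disulfide-linked polymers in the endoplasmic reticulum and Golgi, densely decorated with O-glycans, stored in granules and released as the gel that keeps bacteria away from the epithelium. Membrane mucins form part of the glycocalyx on the brush border.

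The cells were crypt cells of the mouse colon, isolated from C57BL/6 animals of 4 to 10 months with the Tcf4 GfpCre/+ driver and the RosamTmG/+ reporter, without pretreatment. The driver is a knock-in that also disrupts 1 copy of Tcf4, so all animals were heterozygous for Tcf4 (Tcf7l2), and no wild-type cells were analysed here. Cells without a history of Tcf4 promoter activity (Tcf4 Lin-) and cells positive for both reporter proteins (MIX, named DP in the labels) were sorted by FACS, combined with human cells and profiled by Drop-seq, which counts captured transcripts as unique molecular identifiers (UMIs) per cell barcode. The labels name 2 pools (samples 1 to 3 and samples 4 to 6). The suffixes of the barcodes, X1 and X2, could not be tied to a pool or to a sorted population, so that the matrix was taken as 1 sample and no test was made between cell groups. Levels (CPM) are the UMIs of a gene in 1000000 UMIs of the summed cells, given with exact Poisson 95% intervals. Shares of cells with a UMI have exact Clopper-Pearson 95% intervals, and ratios have exact binomial 95% intervals, all of which cover counting error only.

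Mucins were compared across the 3 epithelial subclusters that the study named stem cells (32 cells, 69046 UMIs, median 995.5 per cell), secretory precursors (32 cells, 128664 UMIs, median 1820) and absorptive precursors (42 cells, 151780 UMIs, median 1940). The subclusters were made from the same counts, so the differences below are descriptions. Muc2, Agr2, Clca1, Fcgbp and Spink4 were among the genes by which the study named the secretory precursors. Muc3, Lgals3 and Gsdmc4 were among those by which it named the absorptive precursors. Epithelial markers (Epcam, Krt8, Krt19 and Pigr) summed to between 15490 and 22790 CPM in the subclusters against 96.4 CPM in the 362 intraepithelial lymphocytes (IELs) outside them. The 7 IEL or T cell markers summed to between 29.0 and 132 CPM in the subclusters against 22405 CPM in those IELs, and Cd3e was at 0 in all 3. For its trajectory analysis the study kept cells with Pigr expression and without T cell markers. Pigr was found in every cell of the 3 subclusters and gave 1236 of the 1454 epithelial marker UMIs in stem cells. It gave 1569 of 1993 in secretory precursors and 2421 of 3459 in absorptive precursors. Both marker sums are therefore not an independent check of cell identity. No barcode was shared by X1 and X2. In the list of all cells, 14 of the 106 subcluster cells were listed as IELs instead, and 7 cells with more than 10000 UMIs held 35.4% of the subclusters' UMIs. Mucin levels that turn on the deep cells, and list values that they move most, are given with and without them.

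The 2 mucins with the most UMIs, Muc2 and Muc3, had opposite distributions, so the 250 bases before their RefSeq start sites (GRCm38.p6) are shown, 5′ to 3′ on the gene's strand, Muc2 at chr7:141690090-141690339 on the plus strand and Muc3 at chr5:137166047-137166296 on the minus strand. Capitals mark matches to 4 motifs that were chosen after the sequences had been seen and were searched on both strands, namely TATAAA of the TATA box, AGATAA of the GATA factors, CAGCTG of the E-box and AGGTCA of the nuclear receptors.
Muc2: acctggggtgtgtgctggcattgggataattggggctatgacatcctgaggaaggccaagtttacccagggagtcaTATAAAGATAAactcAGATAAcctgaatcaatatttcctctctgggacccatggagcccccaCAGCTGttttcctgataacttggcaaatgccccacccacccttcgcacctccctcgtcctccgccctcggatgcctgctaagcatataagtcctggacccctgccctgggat
Muc3: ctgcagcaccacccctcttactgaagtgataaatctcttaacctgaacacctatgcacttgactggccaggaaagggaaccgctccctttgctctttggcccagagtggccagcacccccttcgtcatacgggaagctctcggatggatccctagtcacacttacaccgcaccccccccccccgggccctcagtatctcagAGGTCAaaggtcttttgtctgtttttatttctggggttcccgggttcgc
In the Muc2 window TATAAA began 174 bases before the start site and shared its last base with the AGATAA at 169 bases. A further AGATAA began at 159 bases and CAGCTG at 112 bases before the start. In the Muc3 window AGGTCA began 49 bases before the start. AGGTCA also occurred 3 times in the 2 windows of Muc13. TATAAA also occurred 36 bases before the start of Muc4 and 31 bases before that of Muc1. Whether any of these motifs bears on the distribution of the mucins was not tested. Among all 32851 RefSeq windows of this length, 12.4% held the TATA box letters, 9.99% those of GATA, 13% those of the E-box and 14.0% those of the receptor element. These are matches of letters and were not tested as binding sites. By GENCODE M21 (GRCm38), Muc2 (ENSMUSG00000025515.15) spans chr7:141690340-141754693 on the plus strand with 55 annotated exons. Muc3 (ENSMUSG00000037390.12) spans chr5:137134922-137149322 on the minus strand, and its RefSeq start lies upstream of this gene model.

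Muc2, the secreted gel-forming mucin, had the most UMIs of the 5 mucins over the subclusters together and was highest in secretory precursors. Its level was 12101 CPM (11508 to 12718) in secretory precursors, 3418 CPM (2996 to 3883) in stem cells and 679 CPM (554 to 823) in absorptive precursors. The level in absorptive precursors was 0.0561 of that in secretory precursors (0.0455 to 0.0685). Detection followed the same contrast. Of the 32 secretory precursors, 30 held a Muc2 UMI (93.8%, 79.2% to 99.2%), against 7 of 32 stem cells (21.9%) and 6 of 42 absorptive precursors (14.3%). In the IELs, which should lack Muc2, 1 of 362 cells held a UMI (0.276%) at a median depth of 1038 UMIs. With each cell thinned to 800 UMIs and 18 shallower cells left out, a Muc2 UMI was held by 91.3% (secretory), 16.6% (stem) and 11.4% (absorptive). The contrast in detection therefore remained at equal depth.

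Within the secretory precursors, Muc2 was spread over most cells. UMIs per cell ranged from 0 through a median of 17.5 to 354, and relative to 10000 UMIs of the cell from 0 through 77.3 to 224. The interquartile range of the relative level was 50.1 to 161, and 28 of the 32 cells held 5 or more Muc2 UMIs. Both cells without Muc2 were among the 3 that the list of all cells names IELs, and without these 3 cells all 29 held Muc2. The level was alike in the 2 barcode sets, 12201 CPM (11546 to 12883) in X1 and 11625 CPM (10252 to 13131) in the 4 cells of X2.

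In the other subclusters, Muc2 was concentrated in few cells. Of the 236 stem cell UMIs, 213 (90.3%) came from 1 X2 cell with 23205 UMIs, the deepest of the subcluster, which also held 296 UMIs of the goblet cell gene Clca1 and is named an IEL in the list of all cells. The other 6 Muc2-positive stem cells held 12, 4, 2, 2, 2 and 1 UMIs. Without that cell, the stem cell level was 502 CPM (318 to 753). Of the 103 UMIs in absorptive precursors, 66 came from 1 X2 cell, which also held 128 UMIs of Clca1, and the other 5 positive cells held 19, 11, 5, 1 and 1. The order of stem cells and absorptive precursors thus rested on single cells. In absorptive precursors Muc2 had fewer UMIs than Muc3 (103 against 171) and about as many as Muc13 (105), and it had fewer than Muc3 in stem cells without the deep cell (23 against 32 UMIs). Without cells of more than 10000 UMIs, absorptive precursors had 779 CPM (622 to 965), above the stem cells, whereas within X1 stem cells had 740 CPM (445 to 1155) and absorptive precursors 293 CPM (206 to 404).

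**Figure D1:**
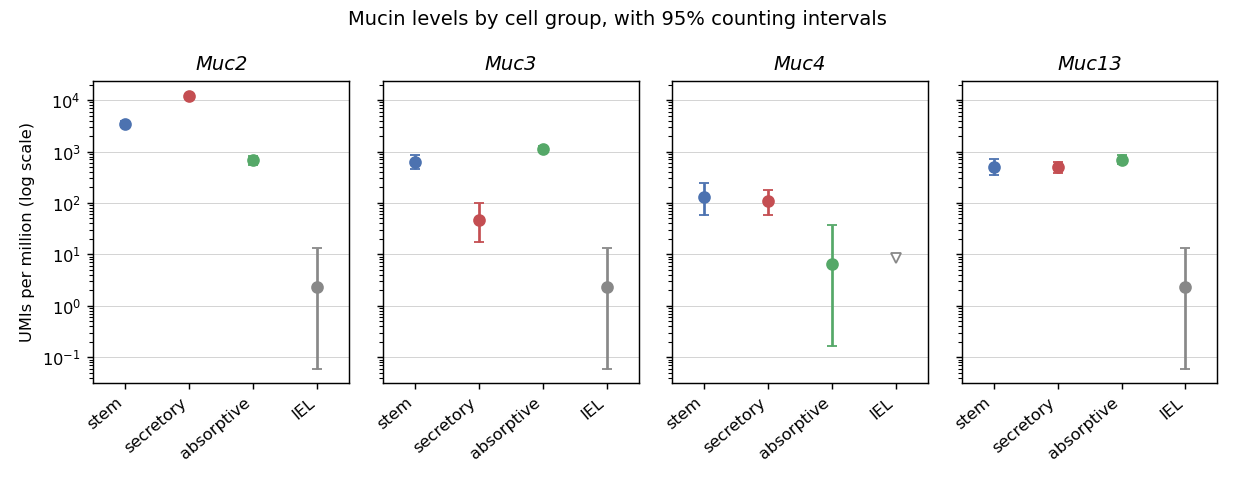
Summed UMIs per 1000000 (log scale) of Muc2, Muc3, Muc4 and Muc13 in stem cells, secretory precursors, absorptive precursors and IELs outside the subclusters. Points are levels and bars exact Poisson 95% intervals, and the open triangle is the upper bound where no UMI was counted. Muc2 was highest in secretory precursors (12101 CPM) and Muc3 in absorptive precursors (1127 CPM), while the Muc13 levels lay close together.

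Muc3, a membrane mucin of enterocytes, had the opposite pattern. Its level was 1127 CPM (964 to 1309) in absorptive precursors, 637 CPM (463 to 856) in stem cells and 46.6 CPM (17.1 to 102) in secretory precursors, against 2.35 CPM in IELs. The absorptive level was 24.2 times the secretory level (10.9 to 66.8). A Muc3 UMI was found in 33 of 42 absorptive precursors (78.6%, 63.2% to 89.7%), in 12 of 32 stem cells (37.5%) and in 2 of 32 secretory precursors (6.25%). Thinned to 800 UMIs per cell, these shares were 51.7%, 25% and 1.1%. The 6 Muc3 UMIs of the secretory precursors were all in 2 cells with 12713 and 12861 UMIs, and among the other 30 cells none held Muc3.

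Among absorptive precursors and stem cells, Muc3 was spread over several cells. In absorptive precursors the relative level ranged from 0 through a median of 9.83 to 55.5 per 10000 UMIs, the highest count was 36 UMIs in 1 cell, and 4 cells held 50% of the UMIs. In the 12 positive stem cells the counts were 12, 10, 4, 3, 3, 3, 2, 2, 2, 1, 1 and 1. The relation of stem cells to the other cells differed between the barcode sets. In X1 the stem cell level was 311 CPM (134 to 614) and the absorptive level 1267 CPM (1078 to 1479), whereas in X2 they were 830 CPM (582 to 1150) and 432 CPM (216 to 773). The ratio of stem cells to all precursors, 1.01 (0.709 to 1.41) over all cells, was 0.436 in X1 and 3.604 in X2. What the sets differ in besides their suffix was not tested.

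Muc13, a small membrane mucin of the gastrointestinal epithelium, was found in all 3 subclusters at levels that lay close together. Its levels were 692 CPM (566 to 838) in absorptive precursors, 507 CPM (353 to 705) in stem cells and 490 CPM (376 to 627) in secretory precursors. Each interval overlapped those of its neighbours. The deepest stem cell held 18 of the 35 stem cell UMIs. Without the deep cells, absorptive precursors were at 547 CPM (417 to 706) and secretory precursors at 416 CPM (281 to 594). Stem cells were then lowest at 371 CPM (216 to 594), and the intervals still overlapped. Over all cells, the absorptive to secretory ratio was 1.41 (1.02 to 1.96). However, 1 absorptive cell held 33 of the 105 UMIs, and without it the ratio was 1.143 (0.804 to 1.63). The ratio fell below 1 when every cell's CPM was given equal weight (0.926) and in barcode set X2 (0.720, 0.329 to 1.55). A Muc13 UMI was found in 23 of 32 secretory cells (71.9%), 25 of 42 absorptive cells (59.5%) and 12 of 32 stem cells (37.5%), against 1 of 362 IELs. At 800 UMIs per cell the shares were 35.3%, 37.1% and 26.4%. Muc13 (chr16:33794037-33819934) overlaps the antisense gene Gm15657 over 2838 bases, and Gm15657 had 1 UMI in the subclusters.

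Muc4, a large membrane mucin that can associate with the receptor ErbB2, had only 24 UMIs in the subclusters. Of these, 8 secretory precursors held 14 (109 CPM, 59.5 to 183), 4 stem cells held 9 (130 CPM, 59.6 to 247) and an absorptive precursor held 1 (6.59 CPM, 0.167 to 36.7). The deepest stem cell held 6 of the 9 stem cell UMIs. Without the deep cells, stem cells were at 65.4 CPM (13.5 to 191) and secretory precursors at 83.3 CPM (30.55 to 181). The order of stem cells and secretory precursors thus turned on the deep cells, and their intervals overlapped with and without them. Over all cells, the absorptive to secretory ratio was 0.0606, with the wide interval of 0.00143 to 0.398. Muc2 was also held by all 8 Muc4-positive secretory precursors, where 30 of 32 cells held it, by 1 of the 4 Muc4-positive stem cells and not by the absorptive cell. None of the 362 IELs held a Muc4 UMI, and a floor of 3 cells allows up to 0.829% of cells with a UMI, which does not limit cells that express the gene. Muc4 (chr16:32735886-32782391) overlaps Muc20 on the opposite strand over 4973 bases, and Muc20 had 1 UMI in the subclusters.

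Muc1, a membrane mucin of many epithelia, had 1 UMI in 1 secretory precursor and none in the 32 stem cells or the 42 absorptive precursors, where the same floor allows up to 9.38% and 7.14% of cells with a UMI. The IELs held 2 Muc1 UMIs in 2 cells. Muc1 was therefore not detectable above the IEL background at this depth, and no ratio was computed. Of 13 other mucin genes looked up, 5 had a row. Muc3a (chr5:137208813-137212389) had 8 (stem), 7 (secretory) and 6 UMIs (absorptive), without the contrast of its neighbour Muc3. The annotated transcripts of the pair shared no 50-base word in GENCODE M21. Muc15, Muc16, Muc19 and Muc20 had 1 UMI each in the cells with a cluster.

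**Figure D2:**
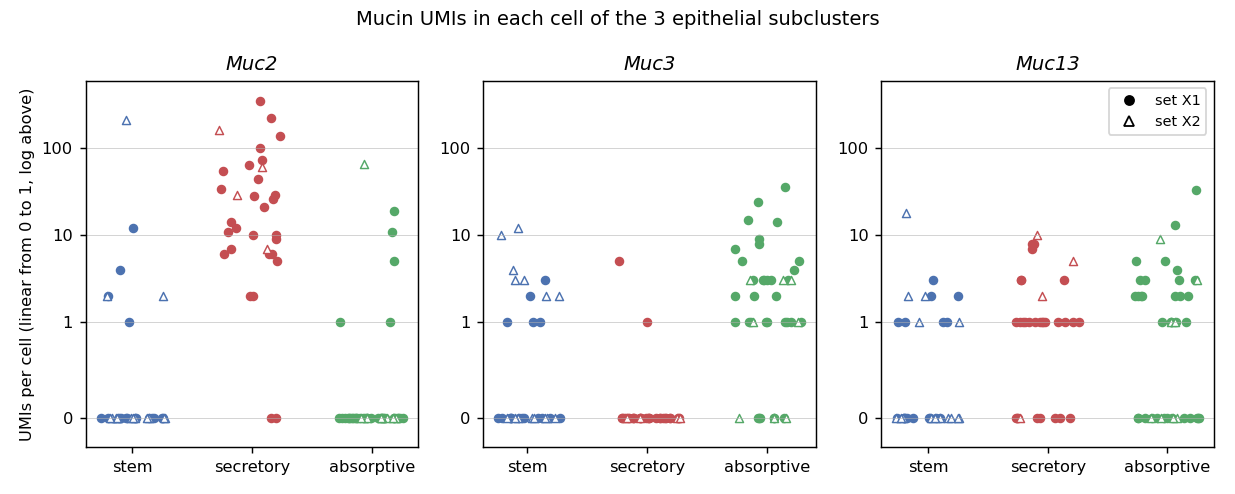
UMIs of Muc2, Muc3 and Muc13 in each of the 106 cells of the 3 epithelial subclusters, on an axis that is linear from 0 to 1 and logarithmic above. Filled circles are cells of barcode set X1 and open triangles those of X2, spread sideways at random. Muc2 is in 30 of 32 secretory precursors, and the highest stem cell (213 UMIs) and the highest absorptive cell (66 UMIs) are X2 cells.

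With a minimum of 10 UMIs over the subclusters, 4 mucins could be compared between the precursor types at a difference of at least 2-fold. Muc2 and Muc4 were higher in secretory precursors, where 14.3% of all 5247 genes were, and Muc3 was higher in absorptive precursors, where 21.3% were. Muc13 was within 2-fold. With 4 genes, no share was read against this background. The make-up of mucin UMIs differed accordingly. UMIs count captured transcripts and were not scaled to gene length, so these are shares of UMIs. The 5 mucins took 1.28% of all UMIs of secretory precursors, and Muc2 was 94.9% of them (93.7% to 95.9%). They took 0.250% in absorptive precursors, of which Muc3 was 45% (39.9% to 50.2%), Muc13 27.6% and Muc2 27.1%. They took 0.469% in stem cells, of which Muc2 was 72.8%, most of it from the deepest cell. The 4 membrane mucins together were at 1825 CPM (1616 to 2053) in absorptive precursors, 1275 CPM (1022 to 1570) in stem cells and 653 CPM (521 to 808) in secretory precursors.

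Over the 106 cells, 34 held only Muc2, 38 only Muc3, 9 both and 25 neither. This division followed the subclusters, since within them 5 of the 6 Muc2-positive absorptive cells also held Muc3, both Muc3-positive secretory cells held Muc2, and 2 of the 7 Muc2-positive stem cells held Muc3. The 9 cells with both had a median depth of 6429 UMIs, against 1656 and 1742 UMIs in cells with only Muc2 or only Muc3. Muc13 was detected with either of them. Of 32 secretory precursors, 30 held Muc2, 23 held Muc13 and 22 held both. Of 42 absorptive precursors, 33 held Muc3, 25 held Muc13 and 22 held both. Whether these counts exceed independent detection was not tested. At least 1 of the 5 mucins was found in 31 of 32 secretory cells, 37 of 42 absorptive cells and 22 of 32 stem cells. The 16 cells without any had a median depth of 934.5 UMIs, against 1715 in the others. In stem cells, which supply 10 of the 16, the medians were 1092 UMIs without and 995.5 UMIs with a mucin. At these depths, absence of a UMI does not show absence of a transcript.

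**Figure D3:**
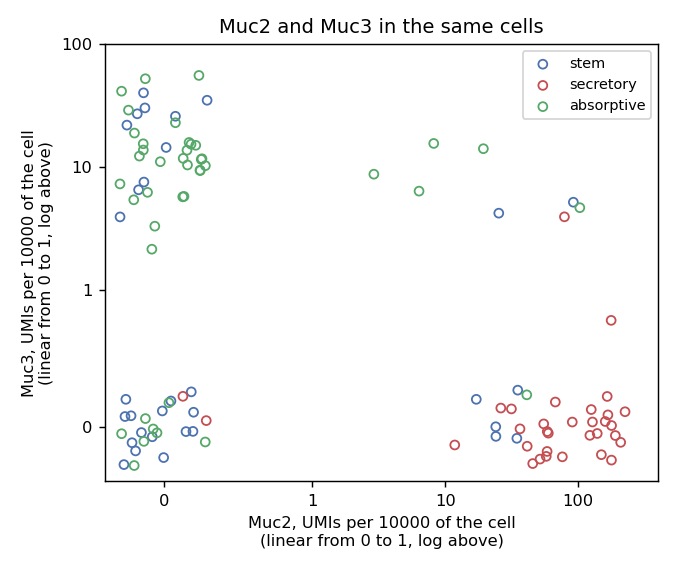
Muc2 and Muc3 UMIs per 10000 UMIs of the cell in the 106 epithelial cells, on axes that are linear from 0 to 1 and logarithmic above, coloured by subcluster. Cells at 0 are scattered at random around 0 so that they can be told apart. Only 9 cells lie above 0 on both axes.

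The enzymes that build O-glycans on mucins were mostly higher in secretory precursors. Of 35 genes listed, 29 had a row and 23 had at least 10 UMIs, of which 17 were at least 2-fold higher in secretory precursors, none was in absorptive precursors and 6 were within 2-fold, against 14.3% and 21.3% of all genes called in these directions. The list's median ratio was 3.78, against 0.862 over all 5247 genes. The 29 genes together were at 5293 CPM (4903 to 5706) in secretory precursors, 3172 CPM (2766 to 3621) in stem cells and 1924 CPM (1709 to 2158) in absorptive precursors. Muc2 was highest in the same subcluster, and the subclusters were not made independently of either. The stem cell sum includes the cell of 23205 UMIs. No sum without it was computed, so the order of stem cells and absorptive precursors was not checked against it.

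Enzymes of several steps were among them. Galnt7, which acts among the GalNAc transferases that start or extend mucin glycosylation, had 90 UMIs in secretory and 16 in absorptive precursors (ratio 6.64, 3.87 to 12.1). Galnt12 (7.08, 2.72 to 23.4) and Galnt10 (4.42, 1.98 to 11.2) of the same family were also higher. C1galt1, the synthase of the core 1 structure, had 33 and 6 UMIs (6.49, 2.69 to 18.9). Among genes of glycan ends and precursors, the fucosyltransferase Fut2 was 3.18-fold higher (1.64 to 6.54). Gne, the key enzyme of sialic acid synthesis, was 2.48-fold higher (1.57 to 4.01), the CMP-sialic acid transporter Slc35a1 2.12-fold (1.37 to 3.32), and the sialyltransferase St6galnac6 2.01-fold (1.38 to 2.94). The last of these was at the limit of the call and fell below 2-fold both without the cells of more than 10000 UMIs (1.98) and in X1 (1.88), as Gne did in X1 (1.98). A pair of genes was picked out after their values had been seen. The sialyltransferase St6galnac1 had 17 UMIs in 5 secretory precursors and none in the other subclusters, at least 6.68-fold higher than in absorptive precursors, and the sulfotransferase Chst4 had 26 and 2 UMIs (15.3, 3.84 to 133, and 31.4 without the deep cells). Without those cells the ratio of Galnt7 was 10.3 and that of C1galt1 9.97, and in X1 that of Galnt12 was 14.2.

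Genes of mucus assembly, release and partners were divided between the precursors. Of 12 compared, 5 were at least 2-fold higher in secretory precursors, 4 in absorptive precursors and 3 were within 2-fold, with a median ratio of 1.21, where 14.3% and 21.3% of all genes were called in these directions. The median had no stable direction, at 0.748 without cells of more than 10000 UMIs and 2.27 in X1. Agr2, Clca1 and Fcgbp, among the 5 higher in secretory precursors, are also genes by which the study named those precursors. Agr2, the endoplasmic reticulum disulfide isomerase needed for Muc2 processing, had 1369 UMIs in secretory and 132 in absorptive precursors (12.2, 10.2 to 14.7). The goblet cell product Clca1 was 11.4-fold higher (9.76 to 13.4, and 37.9-fold in X1) and the mucus protein Fcgbp 3.84-fold (3.28 to 4.50). Ern2, the endoplasmic reticulum stress sensor of mucin-producing cells, was 3.86-fold higher (1.92 to 8.41), and Bcas1 8.85-fold (2.06 to 79.7) with 15 and 2 UMIs. On the absorptive side, the transglutaminase Tgm3 had 42 UMIs in 7 absorptive precursors and none in secretory precursors, whose level was at most 0.0843 of the absorptive one, or at most 0.299 without cells of more than 10000 UMIs. Cftr, the chloride and bicarbonate channel, had 3 UMIs in secretory and 19 in absorptive precursors (ratio 0.186, 0.0353 to 0.633), and Nlrp6, an inflammasome sensor, had 2 and 17 (0.139, 0.0156 to 0.585, and 0.345 without the deep cells). Mep1a, the gene of a brush border protease, was named because it completes the 4 and had none and 8. Without the deep cells its bound was 0.748, no longer 2-fold. Of the 3 within 2-fold, named after their values were seen, the mucus lectin Zg16 had 413 and 344 UMIs, each in few cells (5 and 6), the trefoil peptide Tff3 had 151 and 218 (ratio 0.817, but 0.430 without the deep cells), and the vesicle fusion protein Vamp8 had 27 and 31.

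Of the goblet cell transcription factors, 9 could be compared, and 6 were at least 2-fold higher in secretory precursors and none in absorptive precursors, beside 14.3% and 21.3% of all genes, with a median ratio of 4.72. Atoh1, the factor that specifies the secretory lineage, had 31 UMIs in secretory and 6 in absorptive precursors (6.10, 2.51 to 17.9), and Spdef, which acts in goblet cell maturation, had 30 and 4 (8.85, 3.12 to 34.6, and 29.7 in X1). Xbp1, a factor of the unfolded protein response, was 4.72-fold higher (2.47 to 9.76) and 9.47-fold without the deep cells, and Creb3l1 4.51-fold (2.61 to 8.21). Creb3l4 had 25 UMIs and none (at least 9.83-fold). Foxa3 had 24 UMIs and 1 (28.3, 4.62 to 1164). Klf4, also high in differentiated colonocytes, had 44 and 66 UMIs (0.786, 0.525 to 1.17), and Foxa1 had 7 and 6. Among the 32 stem cells these factors were found in few, with 13 UMIs of Atoh1 in 5 cells, 9 of Spdef in 4 and 15 of Foxa3 in 4. The deepest stem cell held 23205 of the 69046 stem cell UMIs, and its part in these counts was not determined.

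Of 4 partners of membrane mucins, Lgals3, a galectin that binds glycans of membrane mucins, was lower in secretory than in absorptive precursors with 30 and 180 UMIs (0.197, 0.129 to 0.291). A deep secretory cell of 12713 UMIs held 24 of the 30, and without cells of more than 10000 UMIs the ratio was 0.0337. Erbb2, the receptor that Muc4 can bind, had 3 and 10 UMIs (0.354, 0.0626 to 1.37), so that its interval held 1, and the ratio was 0.641 without the deep cells. Ctnnb1, which encodes beta-catenin, had 26 and 30 UMIs, and Ezr, which encodes the membrane linker ezrin, 24 and 24. Over all 4 lists, 28 of 48 genes were at least 2-fold higher in secretory and 6 in absorptive precursors, beside 14.3% and 21.3% of all genes. In barcode set X1 alone, the numbers were 28 and 5 of 47. The lists hold genes by which the study named the precursors, namely Agr2, Clca1, Fcgbp and Lgals3, so the counts are not independent of the naming.

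**Figure D4:**
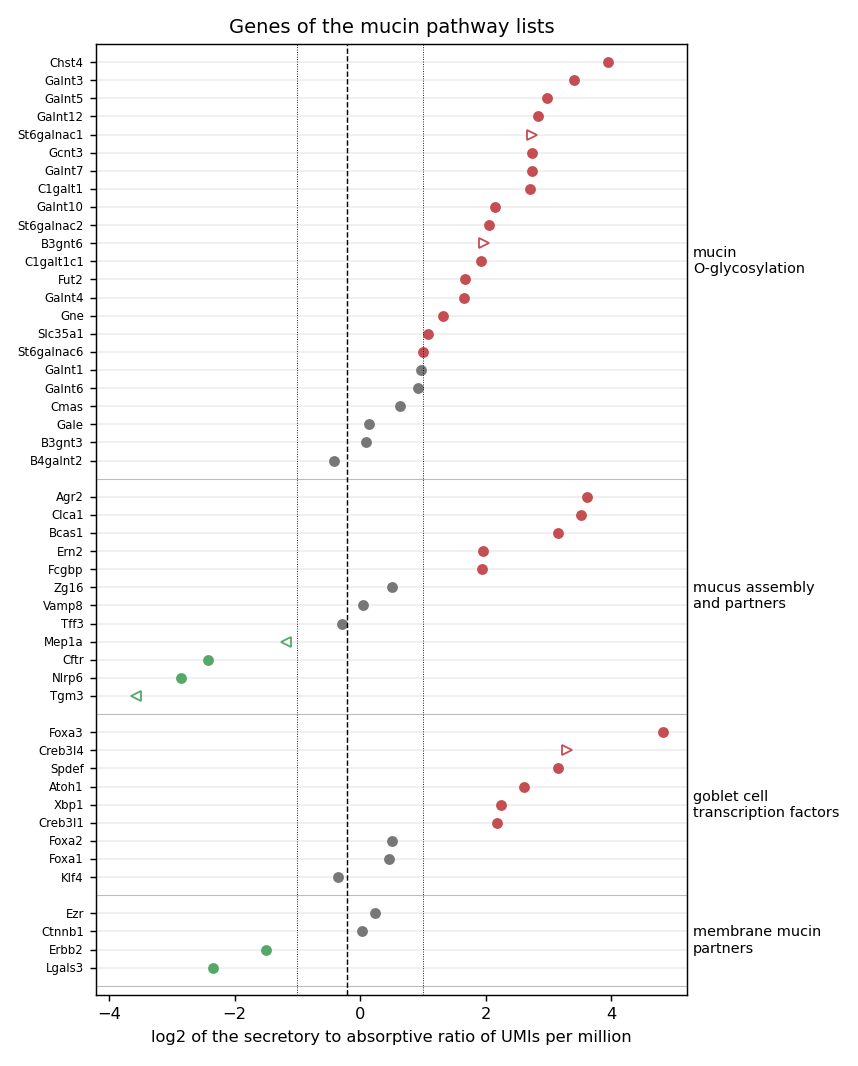
Log2 of the secretory to absorptive ratio of UMIs per 1000000 for the 48 genes of the 4 mucin pathway lists with at least 10 UMIs in the subclusters. Red points are at least 2-fold higher in secretory and green points in absorptive precursors, dotted lines mark 2-fold, open triangles are bounds with 3 UMIs in place of 0, and the dashed line is the median of all genes (-0.21). Of the 23 O-glycosylation genes 17 are red and none is green.

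Genes were also ranked by the Pearson correlation of log(1 + UMIs per 10000) with each mucin over the 106 cells, among 1986 genes found in at least 20 of them. The cells share 1 sample and differ in depth, and the values are descriptions. Of the genes below, Spink4, Agr2, Fcgbp and Gsdmc4 were, like Muc2 and Muc3, among those by which the study named the precursors. Most like Muc2 were Spink4 (r = 0.91), Agr2 (0.84), Mptx1 (0.76), Retnlb (0.72) and Klk1 (0.71). All 5 had r between 0.69 and 0.91 in X1 alone, where 4 of them were again among the first 5. Most like Muc3 were AA467197 (0.65), Gsdmc4 (0.63), 2200002D01Rik (0.56), Selenbp1 (0.54) and Slc6a14 (0.54), of which 3 were again among the first 5 in X1 alone. For Muc13 the highest values were weak, 0.39 for Slc4a7 and Tff3, 0.37 for Foxp1, and 0.36 for Ndufv2 and Fcgbp, and 2 of these 5 were again among the first 5 in X1. Muc2 and Muc3 had r = -0.48, and Muc13 had 0.19 with Muc2 and 0.16 with Muc3.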

How the data were processed

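Libraries of 2 pools were processed by the authors with the McCarroll pipeline for Drop-seq. Tools named in the submitters' processing notes are STAR (2.5.0) and Picard (1.137), with hg19 and mm10 as builds. The deposited counts are raw UMIs for every symbol and barcode, in 1 matrix of 19294 symbols and 1117 barcodes. The annotation behind the counts is not given in the sources used here. Barcodes were joined to the subclusters by the study's own cell list, and no doublet caller was run. The members and lists were chosen with earlier results of these data known. Levels were CPM from summed UMIs, with 3 UMIs in place of 0 in a ratio, and thinning used 100 draws. Genes named are the members, other mucins with a row, up to 8 genes per list (those at least 2-fold apart, then those with the most UMIs) and the 5 genes most correlated with each mucin found in at least 20 cells. Where more than 8 were apart, those with the most UMIs were taken. The ratio computation was checked on simulated Poisson counts. These held no variation between cells, so the check does not cover it. Alternatives were other levels and totals, barcode sets, and leaving out cells listed as IELs, cells over 10000 UMIs or the cell with the most UMIs, joining related barcodes, and thinning. The list counts in X1 alone were an addition made with the data in view. Positions are from GENCODE M21. Python 3.11.15, numpy 2.4.6, scipy 1.17.1, pandas 2.3.3 and matplotlib 3.10.9 were used. Human cells and the stainings, sorts and tumors of the study were not analysed here.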

Additional observations from a re-analysis of the deposited data

Results flagged for a closer look

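The 601 barcodes to which the cell list gives no cluster, left out of the comparisons, also held mucin UMIs above the level in IELs. Their median depth was 212 UMIs, and 36.8% of all their UMIs were mitochondrial. Muc2 had 26 UMIs in 19 of these barcodes, Muc3 had 43 UMIs in 23 and Muc13 had 11 UMIs in 10, against 1 UMI of each in the 362 IELs. Of their 81 mucin UMIs, 53.1% were Muc3 and 32.1% Muc2. The 4 epithelial markers summed to 6388 CPM in these barcodes, against 96.4 CPM in IELs, and the 7 IEL or T cell markers summed to 7657 CPM, against 22405 CPM in IELs. What these barcodes hold was not tested further.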

How the results depend on the processing

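Of 44 values of the main absorptive to secretory ratios and list counts under the alternatives, 34 stayed within the counting interval of the reported ratio or, for list counts, within 1.5 times the reported count, 8 moved and 2 changed direction. The 2 were for Muc13, at 0.926 with every cell's CPM weighted equally and 0.720 in barcode set X2 alone. The Muc2 ratio, 0.0561, moved to 0.0436 with cells weighted equally, 0.0240 in X1 alone, 0.223 in X2 alone and 0.0741 without the cells also listed as IELs. The Muc3 ratio, 24.2, moved to 79.5 with cells weighted equally, 67.6 with cells thinned to 800 UMIs and, as a bound, at least 3.21 in X2 alone. The Muc4 ratio, 0.0606, became at most 0.656 in X2 alone. Its counting interval of 0.00143 to 0.398 is wide. Values of 0.272 with cells weighted equally and 0.272 with cells thinned to 800 UMIs therefore counted as staying within it. Muc2 stayed lower and Muc3 higher in absorptive precursors under every alternative that was run. The causes of these moves were not tested. Muc1 could give no ratio under any alternative, with at most 1 UMI in each arm.

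The ratio of Muc2 in stem cells to all precursors, 0.577, was 0.0969 without cells over 10000 UMIs, 0.129 in X1 and 0.735 in X2. With 20 UMIs as the minimum, 23 of 39 list genes were at least 2-fold higher in secretory and 4 in absorptive precursors. With 5 UMIs, these were 30 and 6 of 51. Joining barcodes that differ at 1 base turned the 106 subcluster cells into 92, and the Muc2 ratio became 0.0563 and the Muc3 ratio 24.1. Shares of cells and their intervals were not recomputed after joining and treat all 106 as separate cells. No paired analysis was possible because all cells form 1 sample. The 2 pools are not separated, the median depth is 1606 UMIs, and 7 deep cells hold 35.4% of the UMIs.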
